A study of Mus musculus with 3 samples.

Results

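RNA from myeloid-derived suppressor cells (MDSCs) of mice that lack lnc57Rik, a long noncoding RNA (lnc57Rik KO), was compared with RNA from wild type (WT) cells, gene by gene, with 1 library per genotype. A row of the expression table was compared when its mean over the 3 libraries of the study was at least 1 FPKM (a fragment count divided by transcript length and by the size of the library), which kept 22202 of 57561 rows, 12041 with an Ensembl and 10161 with a NONCODE identifier. The measure was the log2 ratio of lnc57Rik KO to WT after adding 1 FPKM to both, called the log2 fold here, which understates the change of genes with low values. A gene was called higher at a log2 fold of at least 1 and lower at -1 or less. This is a rule of size, since 1 library per genotype allows neither a replicate check nor a test.

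All libraries came from MDSCs grown out of C57BL/6 femur marrow for 4 days in the presence of GM-CSF and IL6, per the labels. The WT mice carried no deletion, the lnc57Rik KO mice were labelled lnc57Rik-/-, and a further library came from mice labelled lncGM1082-/- (lncGM1082 KO), which lack another long noncoding RNA. None of the sources used here gives age, the number of mice behind a library or the way the alleles were made. The lncGM1082 KO value is printed beside the other values for reference, and both knockouts share the same WT library.

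MDSCs are immature myeloid cells of the neutrophil and monocyte lineages that restrain T cells, and GM-CSF with IL-6 is a standard way to grow them from marrow. Long noncoding RNAs are transcripts without a protein product, some of which act by binding proteins that set transcription in the same cell. A marrow culture starts from mixed cells, and lymphocytes, dendritic cells, eosinophils and basophils can persist or arise beside the suppressor cells.

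The values rested on 18485196 fragments for WT, 17593576 for lnc57Rik KO and 18280517 for lncGM1082 KO. S100a9 and S100a8, of the neutrophil and MDSC list, were abundant. WT and lnc57Rik KO stood at 4521 and 4509 FPKM for S100a9 and at 2718 and 2610 FPKM for S100a8. Itgam (CD11b), the marker of all MDSCs, had 36.5 FPKM in WT, 31.0 in lnc57Rik KO and 25.1 in lncGM1082 KO, and Ly6g, of the granulocytic kind, 73.4, 21.1 and 33.9 FPKM. No row was matched to lnc57Rik, since 0 symbols in the table end in 57Rik, so its loss could not be checked here. Of all compared Ensembl rows 3.79% were higher and 1.4% lower. Of 45 compared B cell markers 33 were higher and 0 lower, with a median log2 fold of 2.11, and 20 of the 45 were under 1 FPKM in WT. At that WT level the rule allows no lower call, and such genes passed the filter through a high library. The direction of these 20, and of members of the other lists at that level, is thus no result in itself. The summed level of the whole B cell list was 474 FPKM for WT, 1073 for lnc57Rik KO and 464 for lncGM1082 KO, with 2 members at 0 in WT and 0 members at 0 in lnc57Rik KO. Of 31 compared dendritic cell markers 14 were higher and 1 lower, and their summed level went from 1468 to 2515 FPKM. Of 19 eosinophil, basophil and mast cell markers 8 were higher, with sums of 398 and 664 FPKM, and of 11 markers of T, NK and innate lymphoid cells 3 were higher, with sums of 68.5 and 91.9 FPKM. Of 44 neutrophil and MDSC markers 1 was higher and 10 were lower, with 34 below 0 and a median log2 fold of -0.45. Their sums were 18563 FPKM in WT, 15642 in lnc57Rik KO and 13678 in lncGM1082 KO. Of 28 monocyte and macrophage markers 4 were higher and 5 lower, with sums of 4585, 2993 and 3659 FPKM. Among 22 immediate early and heat shock genes, which respond to the handling of cells, 1 was higher and 2 were lower, with a median log2 fold of -0.45 and 16 below 0. These are bulk samples, in which fewer cells of a type and less RNA per cell cannot be told apart. The part of these shifts in the results below was not tested. The remaining text therefore turns mainly to genes outside these lists. Marker genes still enter the ranking by FPKM, some function lists and the immunoglobulin constant genes.

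Most genes differed little between the libraries, and more of the large differences were upward. Of the Ensembl rows 456 were higher, which is 3.79% of those compared, and 168 were lower, which is 1.4%. With NONCODE rows included, 752 rows were higher (3.39%) and 340 lower (1.53%), together 4.92%, against 5.18% for Ensembl rows alone. The median log2 fold over all Ensembl rows was 0.10, 64.1% of rows lay above 0, and 80.4% lay within 0.5 of 0 in either direction. A log2 fold of at least 2 was reached by 71 rows and one of -2 or less by 14. Marker lists held 62 of the higher and 16 of the lower rows. Outside them, 3.33% of 11843 rows were higher and 1.28% lower, again with a median of 0.10. Among NONCODE rows, transcripts catalogued as long noncoding RNA, 2.91% were higher and 1.69% lower.

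**Figure D1:**
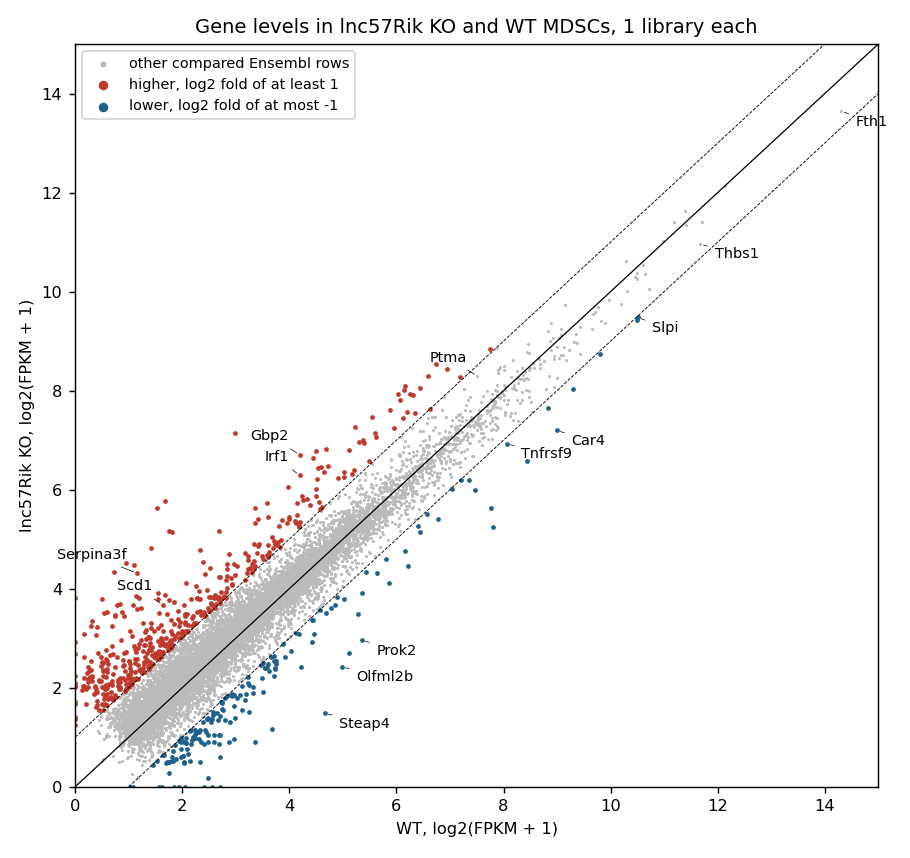
Level of each compared Ensembl row in WT (x axis) and lnc57Rik KO (y axis), both as log2(FPKM + 1), 1 library each. Dashed lines mark a log2 fold of 1 and -1; the 456 higher rows are red, the 168 lower rows blue, and 138 of the higher rows have under 1 FPKM in WT.

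Depth allowed smaller differences to be seen than the rule asks for: the 95% interval of the FPKM ratio, which covers counting error only, lay above 1 for 39.7% and below 1 for 17.3% of 12028 Ensembl rows with fragments. Such intervals hold no spread between cultures or mice. They also take the FPKM scale as given, whereas scaling the libraries by their median ratio moved the median log2 fold of all rows from 0.07 to 0.00. How often the rule was passed varied with the kind of gene and its level. Of 10260 protein-coding genes 319 were higher and 61 lower, and in all 380 the interval excluded a ratio of 1. Of 600 small RNA genes, such as small nuclear and nucleolar RNAs, 66 were higher and 68 lower. These short genes held a median of 18 fragments over both libraries, and 61 of the 134 intervals excluded 1. The median log2 fold was 0.13 for rows with a mean of 1 to 2 FPKM, 0.08 for 10 to 20 FPKM, -0.10 for 100 to 1000 FPKM and -0.20 for the 18 rows above that. Low rows thus lay slightly above 0 and the most abundant slightly below.

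Chromosome 13 held the largest share of higher rows, 10.7% of 513, and carries the Hist1 cluster of replication-dependent histones. Of 48 compared Hist1 genes 41 were higher and 0 lower, with a median log2 fold of 1.63, whereas 3.01% of the other 465 rows of the chromosome were higher. Histone genes are near-identical copies, so the value of a single one is uncertain.

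The rule had members close to its edges. Parp1, a DNA damage sensor, stood just inside with 7.96 FPKM in WT, 17.0 in lnc57Rik KO and 7.95 in lncGM1082 KO and a log2 fold of 1.0. The small GTPase gene Rras2 was also at 1.0 with 0.913 and 2.83 FPKM. Il1f10, an interleukin-1 family cytokine, was just inside at -1.01 with 2.92 and 0.951 FPKM, and Pfkfb3, which drives glycolysis, was just outside with 146 and 72.6 FPKM. For the filter, Bbip1 and Usp54 lay just inside and Shisa8, at a mean of 0.999 FPKM, and Tspan2, at 0.996, just outside a mean of 1.

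Histones, small RNAs, antigen receptor genes, ribosomal pseudogenes and genes with clone or predicted names were left out of the ranking that follows. Among those left out, Hist1h3g had a log2 fold of 2.29 and Hist1h1a 2.20. Of the other genes outside the marker lists, the largest positive folds at a mean of 5 FPKM or more were led by protease inhibitors and interferon-induced GTPases. Serpina3f, a serine protease inhibitor of a mouse gene cluster, had 1.23 FPKM in WT, 18.9 in lnc57Rik KO and 1.60 in lncGM1082 KO. The FPKM ratio of lnc57Rik KO to WT was 15.4 (95% interval 11.6 to 20.8) and the log2 fold 3.16. Its neighbour Serpina3g had 10.97 FPKM in WT, 52.1 in lnc57Rik KO and 11.3 in lncGM1082 KO, a ratio to WT of 4.74 (4.27 to 5.28) and a log2 fold of 2.15. Both inhibitors were high in the lnc57Rik KO library alone. Serpinb9, which inhibits granzyme B, had 3.19, 16.4 and 5.64 FPKM (log2 fold 2.06).

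Guanylate-binding proteins are GTPases that attack intracellular pathogens and are induced by interferon. Gbp2 had 17.4 FPKM in WT, 103 in lnc57Rik KO and 23.7 in lncGM1082 KO, a ratio of 5.93 (5.50 to 6.40) and a log2 fold of 2.50. Gbp9 had 4.22, 22.2 and 6.46 FPKM (2.15) and Gbp5 6.34, 24.9 and 8.13 FPKM (1.82). Irf1, a transcription factor of the interferon response, had 17.3, 77.1 and 22.9 FPKM (2.10). In these 4 genes the lncGM1082 KO value was nearer to WT than to lnc57Rik KO.

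The other large positive folds fell on genes of varied function. Scd1, the desaturase that makes monounsaturated fatty acids, had 2.12 FPKM in WT, 11.8 in lnc57Rik KO and 1.70 in lncGM1082 KO (log2 fold 2.03). Ccl24, a chemokine that attracts eosinophils, had 1.96, 10.4 and 2.96 FPKM (1.95). Tlr9, the receptor for unmethylated CpG DNA, had 3.79, 15.7 and 8.59 FPKM (1.80), so its lncGM1082 KO level lay between the others. The DNA-sensor family gene Ifi213 had a log2 fold of 1.79, the nonclassical class I gene H2-Q6 1.70, the lymphoid membrane protein gene Lrmp 1.66, the sorting nexin gene Snx29 1.64 and the small GTPase gene Gem 1.63. H2-Q6 stood at 24.2 FPKM in WT, 80.9 in lnc57Rik KO and 63.4 in lncGM1082 KO, and was thus high in both knockout libraries. It has near-identical copies, so its own value is uncertain.

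The promoters of Serpina3f and Gbp2 are shown because these had the largest positive folds of the genes ranked above that had a RefSeq promoter entry. The limits were a mean of 5 FPKM or more and no place in a marker list. Windows (GRCm38.p6) ran from 250 bases before to 50 after the RefSeq start. Capitals mark matches, on either strand, of TTNNGNAA, a pattern that C/EBP factors bind, and of GAAA repeated after any 2 bases, the pattern of interferon response elements.
Serpina3f promoter, chr12:104214294-104214593, plus strand: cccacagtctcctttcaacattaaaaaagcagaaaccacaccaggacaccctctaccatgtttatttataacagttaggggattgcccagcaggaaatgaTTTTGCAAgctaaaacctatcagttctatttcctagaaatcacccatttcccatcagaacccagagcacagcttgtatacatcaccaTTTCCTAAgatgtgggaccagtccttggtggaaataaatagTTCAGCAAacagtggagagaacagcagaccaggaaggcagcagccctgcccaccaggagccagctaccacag
Gbp2 promoter, chr3:142620413-142620712, plus strand: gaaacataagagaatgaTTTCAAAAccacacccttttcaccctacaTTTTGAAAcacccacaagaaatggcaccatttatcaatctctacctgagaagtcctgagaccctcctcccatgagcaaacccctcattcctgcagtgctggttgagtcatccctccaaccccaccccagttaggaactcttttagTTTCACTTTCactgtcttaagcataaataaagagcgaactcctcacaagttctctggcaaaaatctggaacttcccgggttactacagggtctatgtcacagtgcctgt
The Serpina3f window held 3 matches of the C/EBP pattern, and the Gbp2 window held 2 of them and 1 match of the interferon pattern, which began 59 bases before the start. A match describes letters and says nothing of binding in these cells.

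**Figure D2:**
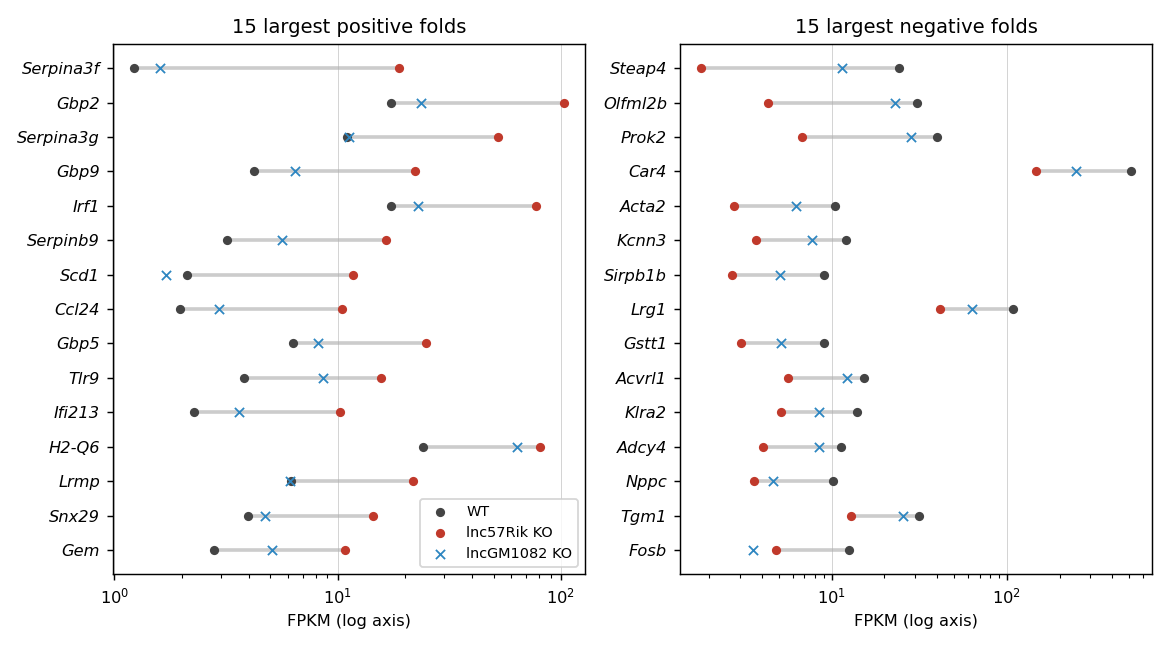
FPKM (log axis) of the 15 largest positive (left) and 15 largest negative (right) folds outside marker lists at a mean of 5 FPKM or more. Histones, small RNAs, antigen receptor genes, ribosomal pseudogenes and genes with clone or predicted names were left out. Points are single libraries. Most lncGM1082 KO values lie between WT and lnc57Rik KO, and those of Scd1, Lrmp and Fosb lie outside that span.

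The largest negative folds were ranked outside the marker lists at a mean of 5 FPKM or more, with the same kinds of gene left out. Immunoglobulin genes were thus not ranked. The largest of these folds fell on metal, matrix and secreted protein genes. Steap4, a reductase of iron and copper, had 24.3 FPKM in WT, 1.80 in lnc57Rik KO and 11.4 in lncGM1082 KO. The FPKM ratio of lnc57Rik KO to WT was 0.0740 (95% interval 0.0598 to 0.0907) and the log2 fold -3.18. Olfml2b, a secreted olfactomedin-domain protein, had 30.6, 4.35 and 23.1 FPKM (-2.56), and Prok2, a secreted prokineticin of neutrophils, had 40.0, 6.79 and 28.3 FPKM (-2.40). Each of the 3 was lowest in lnc57Rik KO and intermediate in lncGM1082 KO.

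Car4, a carbonic anhydrase anchored in the membrane, was far more abundant, with 511 FPKM in WT, 146 in lnc57Rik KO and 247 in lncGM1082 KO (log2 fold -1.80). Lrg1, a leucine-rich glycoprotein of neutrophil granules and the acute phase, had 109, 41.6 and 63.4 FPKM (-1.37). Further lower genes were Acta2, the smooth muscle actin (-1.59), Kcnn3, a calcium-activated potassium channel (-1.46), Sirpb1b, a signal regulatory protein (-1.44), and Gstt1, a glutathione transferase (-1.30). They were followed by Klra2, a Ly49 family receptor, Adcy4, an adenylyl cyclase, and Acvrl1, a receptor of the TGF-beta family, all at -1.29. Nppc, the precursor of C-type natriuretic peptide, was at -1.28, the transglutaminase gene Tgm1 at -1.23 and the AP-1 gene Fosb at -1.22. Fosb, an immediate early gene, was lower still in lncGM1082 KO, with 12.5 FPKM in WT, 4.81 in lnc57Rik KO and 3.58 in lncGM1082 KO.

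The same capitals mark matches in the promoters of Steap4 and Olfml2b, which had the largest negative folds under the same limits.
Steap4 promoter, chr5:7960222-7960521, plus strand: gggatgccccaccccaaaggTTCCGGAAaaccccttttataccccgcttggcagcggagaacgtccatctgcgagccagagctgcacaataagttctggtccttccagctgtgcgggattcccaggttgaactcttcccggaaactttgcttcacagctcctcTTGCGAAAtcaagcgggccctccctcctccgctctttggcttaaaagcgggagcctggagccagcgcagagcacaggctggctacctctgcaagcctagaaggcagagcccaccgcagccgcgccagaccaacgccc
Olfml2b promoter, chr1:170644282-170644581, plus strand: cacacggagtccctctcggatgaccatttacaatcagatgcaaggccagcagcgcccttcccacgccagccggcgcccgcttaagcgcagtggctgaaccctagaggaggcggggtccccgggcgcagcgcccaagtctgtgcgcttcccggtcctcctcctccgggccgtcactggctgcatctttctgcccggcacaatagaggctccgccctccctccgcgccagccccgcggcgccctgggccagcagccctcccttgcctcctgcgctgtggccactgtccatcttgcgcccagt
The Steap4 window held 2 matches of the C/EBP pattern, the first of which overlapped a match of a kappa B pattern, and the Olfml2b window held no match of either pattern in capitals.

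On the FPKM scale the largest losses exceeded the largest gains. Fth1, the heavy chain of the iron store ferritin, lost the most, with 20190 FPKM in WT, 12804 in lnc57Rik KO and 18697 in lncGM1082 KO, and Ftl1, the light chain, went from 3341 to 2728 FPKM. Neither passed the rule of size, with log2 folds of -0.66 and -0.29. Thbs1, the adhesive matrix protein thrombospondin 1, had 3261, 1993 and 3398 FPKM. Slpi, an inhibitor of neutrophil proteases, had 1450 FPKM in WT, 713 in lnc57Rik KO and 1522 in lncGM1082 KO and passed the rule at -1.02. Lyz2, the lysozyme of myeloid cells, had 1449, 684 and 614 FPKM (-1.08), so it was low in both knockout libraries, unlike Slpi. The other large losses were in Lcn2, a siderophore binder (-0.67), Nos2 (-1.06), Car4, Arg1 (-1.25) and the haptoglobin gene Hp (-0.44). Lyz2, Lcn2, Nos2 and Arg1 are members of marker lists.

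Histones were among the largest gains in FPKM, with Hist1h3c up by 264.6 FPKM (log2 fold 1.79), and were left out of the naming of genes. Antigen receptor genes were left out too, and of these Ighm gained 133.7 FPKM (4.15), more than the 131.7 FPKM of Ptma below. Among the 10 largest gains of other named genes, most were in genes abundant in most cells, and 1 passed the rule. Beta-actin (Actb) had 2666 FPKM in WT, 3161 in lnc57Rik KO and 2188 in lncGM1082 KO, and the class I light chain gene B2m had 1246, 1569 and 1423 FPKM. The mitochondrial respiratory genes mt-Co1 and mt-Cytb had log2 folds of 0.22 and 0.57. Ptma, which encodes a nuclear protein linked to growth, had 181, 313 and 170 FPKM (0.78). Ifitm3, which blocks virus entry, was at 0.48, the chaperone gene Hsp90ab1 at 0.36, the class II invariant chain gene Cd74 at 0.48 and the virus tether Bst2 at 0.99. Ccl22, a chemokine of dendritic cells, passed the rule at 1.95 and belongs to the dendritic cell list. Cd74 and Bst2 are also members of marker lists.

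Some neighbouring genes passed the rule together. Over the genome 17 runs of at least 3 neighbouring compared genes were past it in one direction, 16 higher and 1 lower. They held 87 of the 624 Ensembl rows past the rule in either direction. Histones made up 4 of them with 37 genes, and 3 began in immunoglobulin genes with 13 genes. The other 9 higher runs held 34 genes, most of them members of gene families known to respond to interferon. Some of the 34 had under 1 FPKM in WT, where the rule allows no lower call. Among them were all genes of the run on chromosome 18 (Gm4951, Gm5970 and Iigp1). Such genes passed the filter through a high library, so their direction is no result in itself.

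**Figure D3:**
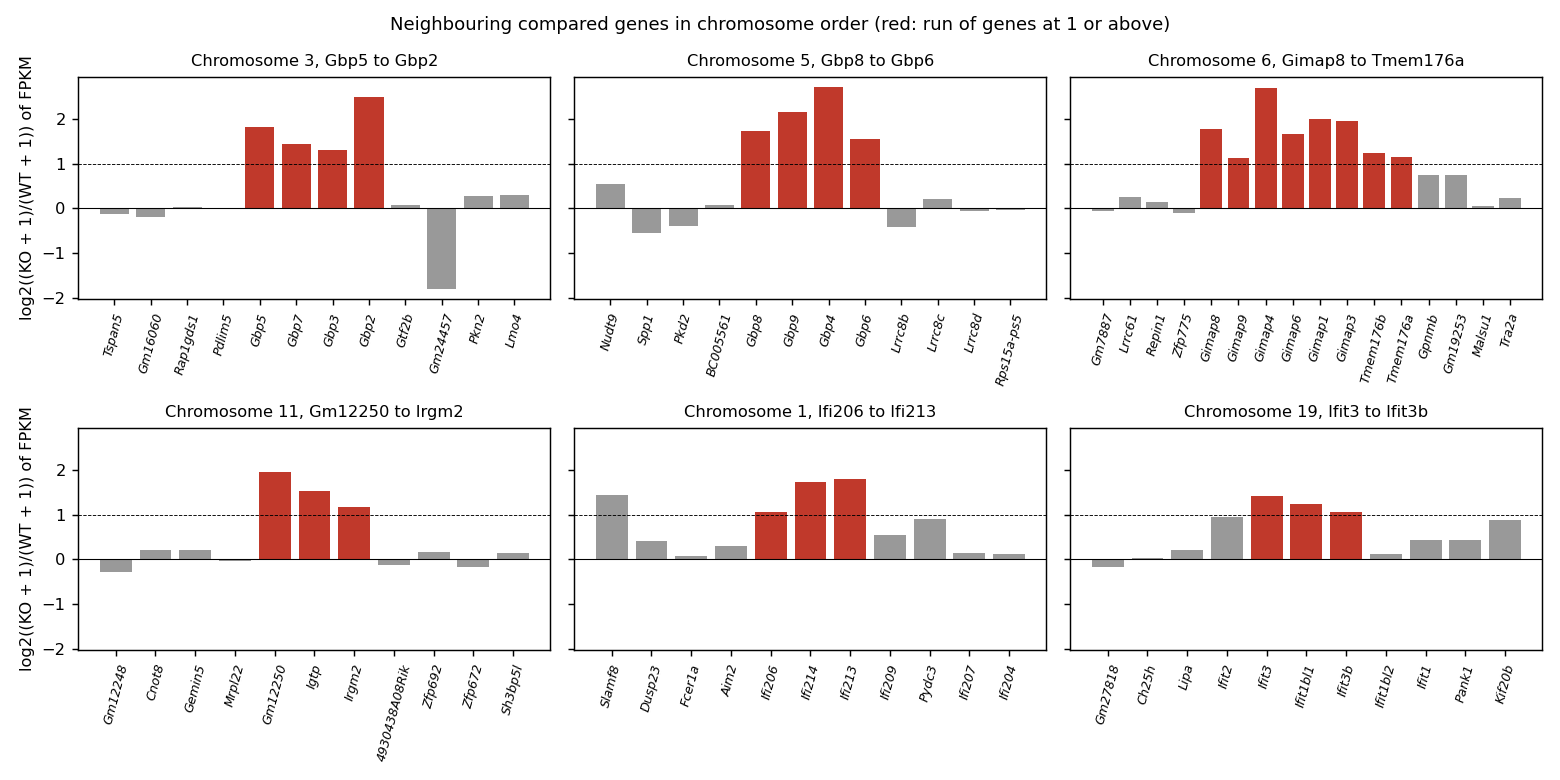
Log2 fold of lnc57Rik KO over WT for 6 of the runs and up to 4 compared genes on each side, in chromosome order. Red bars are the genes of the run, all above the dashed line at 1, and grey bars are flanking genes, which lie between -1 and 1 except Slamf8 (1.44) and Gm24457 (-1.80).

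Of 11 guanylate-binding protein genes 3 did not reach the filter and the other 8 were higher, with log2 folds from 1.31 to 2.71. Of these 8, 5 had 1 FPKM or more in WT, while Gbp4, Gbp6 and Gbp8 did not. Under 1 FPKM in WT the rule allows no lower call, so the direction of Gbp4, Gbp6 and Gbp8 is no result in itself. The 8 lay in a run of 4 on chromosome 3 (Gbp5, Gbp7, Gbp3 and Gbp2, GRCm38 142493978 to 142638008) and a run of 4 on chromosome 5 (Gbp8, Gbp9, Gbp4 and Gbp6, 105014150 to 105293698). Gbp4 had 0.679 FPKM in WT and 1.15 in lncGM1082 KO, and was highest in lnc57Rik KO with a log2 fold of 2.71. A pseudocount of 5 took Gbp8, Gbp6 and Gbp3 to 0.71, 0.69 and 0.98, short of the rule. The gene families were described after their values were seen, and copies within a family can share reads. Gbp8, Gbp9 and Gbp4 also overlap each other on the same strand, so they may not be separate measures.

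All 8 compared immunity-related GTPases, which disrupt the vacuoles of intracellular parasites, were higher as well, from 1.17 to 2.96, 6 of them with 1 FPKM or more in WT. Iigp1 had 0.225 FPKM in WT, 8.52 in lnc57Rik KO and 0.631 in lncGM1082 KO, and Igtp had 13.5, 40.7 and 17.2 FPKM. At its WT level Iigp1 could not be called lower, so its direction is no result in itself. Irgm2, at 10.3, 24.4 and 12.1 FPKM, had the smallest fold of the family, and it overlaps Igtp on the same strand, so their reads may be shared. Of 11 Ifi200 family genes, which include DNA sensors, 5 were higher, Ifi203 (1.32), Mndal (1.06) and the neighbours Ifi206 (1.06, but 0.98 under median ratio scaling), Ifi214 (1.72) and Ifi213 on chromosome 1. Of the 11, 10 had 1 FPKM or more in WT and 4 of these were higher, while Ifi214, at 0.360 FPKM, could not be called lower. Of 6 Ifit genes, which bind foreign RNA, 3 were higher (Ifit3, Ifit1bl1 and Ifit3b, a run on chromosome 19). Of the 6, 4 had 1 FPKM or more in WT and 2 of these were higher, while Ifit1bl1, at 0.333 FPKM, could not be called lower. Of 7 Schlafen (Slfn) genes, also interferon-induced, 0 were past the rule, with a median of -0.09 and a range from -0.65 to 0.77.

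Of 8 Gimap genes, GTPases of lymphocytes, 2 did not reach the filter and the other 6 were higher, from 1.13 to 2.70. With 1 FPKM or more in WT there were 2, and the other 4 passed the filter through their high library, which fixes their direction. They lay in a run on chromosome 6 that went on into Tmem176b and Tmem176a (48647234 to 48847071). Gimap4 had 0.677 FPKM in WT, 9.87 in lnc57Rik KO and 1.28 in lncGM1082 KO, and Gimap9 had 4.08, 10.1 and 5.20 FPKM. With a pseudocount of 5, Gimap8, Gimap9, Gimap6, Gimap1 and Gimap3 lay between 0.73 and 0.89 and no longer passed. Shorter runs held H2-Q4, H2-Q5 and H2-Q6 on chromosome 17, and Them6, Lynx1 and the B cell gene Ly6d on chromosome 15. The single lower run, on chromosome 15 from 76266809 to 76296896, held a row that GENCODE calls Mirt2 (85.7 FPKM in WT, 34.5 in lnc57Rik KO and 81.3 in lncGM1082 KO), Spatc1 (11.1, 4.61 and 10.2 FPKM) and the sphingomyelinase gene Smpd5 (16.5, 7.64 and 12.2 FPKM). All 3 stayed closer to WT in lncGM1082 KO. The Mirt2 row and Spatc1 overlap on opposite strands, and the strand setting is not known, so their reads may be shared. Without Spatc1 as a gene of its own the run would fall short of 3 genes.

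The immunoglobulin constant genes, chosen after their values were seen, differed in direction. Ighm and Ighd, the classes of naive B cells, were higher, from 6.97 to 141 FPKM and from 2.36 to 34.9 FPKM. Of the switched classes 3 were lower, with Igha from 11.8 to 1.26 FPKM (log2 fold -2.50), Ighg2c from 33.7 to 5.49 FPKM (-2.42) and Ighg1 from 5.47 to 1.05 FPKM (-1.66). Ighg2b went from 8.38 to 4.31 FPKM (-0.82), short of the rule, and Ighg3 from 0.345 to 1.13 FPKM (0.66). In lncGM1082 KO, Ighm had 7.31, Ighd 2.56, Igha 11.1 and Ighg2c 15.1 FPKM. Of 9 compared plasma cell markers 0 were past the rule, and Jchain, which joins IgA and IgM chains, went from 2.92 to 0.994 FPKM (-0.98).

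The function lists held 1519 compared genes, of which 44 were higher (2.9%) and 16 lower (1.05%), with a median of 0.13, against 3.79% and 1.4% of all Ensembl rows. Of the 44 higher genes 10 had under 1 FPKM in WT, namely Dtx1, Dll4, Rasgrp3, Slamf8, Aff3, Mef2c, Kmo, Adcy6, Retnla and Zfp982. They passed the filter through a high library, and at that WT level the rule allows no lower call. Their direction is thus no result in itself. With a pseudocount of 5 the number past the rule was 14 in place of 60. In DNA repair and chromatid cohesion all 38 compared members lay above 0 (37 under median ratio scaling), with a median of 0.44, and 2 were higher. One of them was the DNA damage kinase gene Atm, with 2.34 FPKM in WT, 5.80 in lnc57Rik KO and 2.51 in lncGM1082 KO (log2 fold 1.03). Under median ratio scaling Atm fell short of the rule, at 0.96. The list went down to 0.05, in the helicase gene Wrn.

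Nucleotide synthesis had the highest median of the function lists, 0.48, with 26 of 30 members above 0 and 3 higher. Samhd1, which breaks down deoxynucleotides, had 19.8, 50.9 and 20.5 FPKM in WT, lnc57Rik KO and lncGM1082 KO (1.32). Rrm2, a subunit of ribonucleotide reductase, had 17.2, 37.1 and 16.9 FPKM (1.07), and Dut, which removes dUTP, had 5.19, 11.9 and 5.70 FPKM (1.06). Under median ratio scaling Rrm2 and Dut fell short of the rule, at 0.98 and 0.99. In serine and one-carbon metabolism the median was 0.38 over 16 members, with Shmt2 (1.29) and Psat1 (1.10), which make glycine and serine, higher. Shmt2 had 6.94 FPKM in WT, 18.4 in lnc57Rik KO and 8.25 in lncGM1082 KO, and Psat1 had 8.25, 18.9 and 9.23 FPKM. Aldh1l2, a mitochondrial folate dehydrogenase, was the 1 lower member, with 5.82, 1.95 and 5.78 FPKM (-1.21).

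All 27 aminoacyl-tRNA synthetases, which charge tRNAs, lay above 0, with a median of 0.33. Vars, which charges valine, was the 1 member past the rule, with 12.4 FPKM in WT, 28.8 in lnc57Rik KO and 9.83 in lncGM1082 KO (1.16), and the smallest was the mitochondrial Nars2 at 0.08. Ribosome biogenesis (0.18 over 39 members), translation factors (0.09 over 38) and mitochondrial ribosomal proteins (0.16 over 73) had no member past the rule. In fatty acid synthesis and oxidation the median was 0.25 over 28 members, and the desaturase Fads2 (17.2, 37.7 and 17.3 FPKM, 1.09) was higher beside Scd1. In tryptophan and NAD metabolism, Kmo of the kynurenine route was higher (0.618, 3.16 and 0.486 FPKM, 1.36) beside Parp1.

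**Figure D4:**
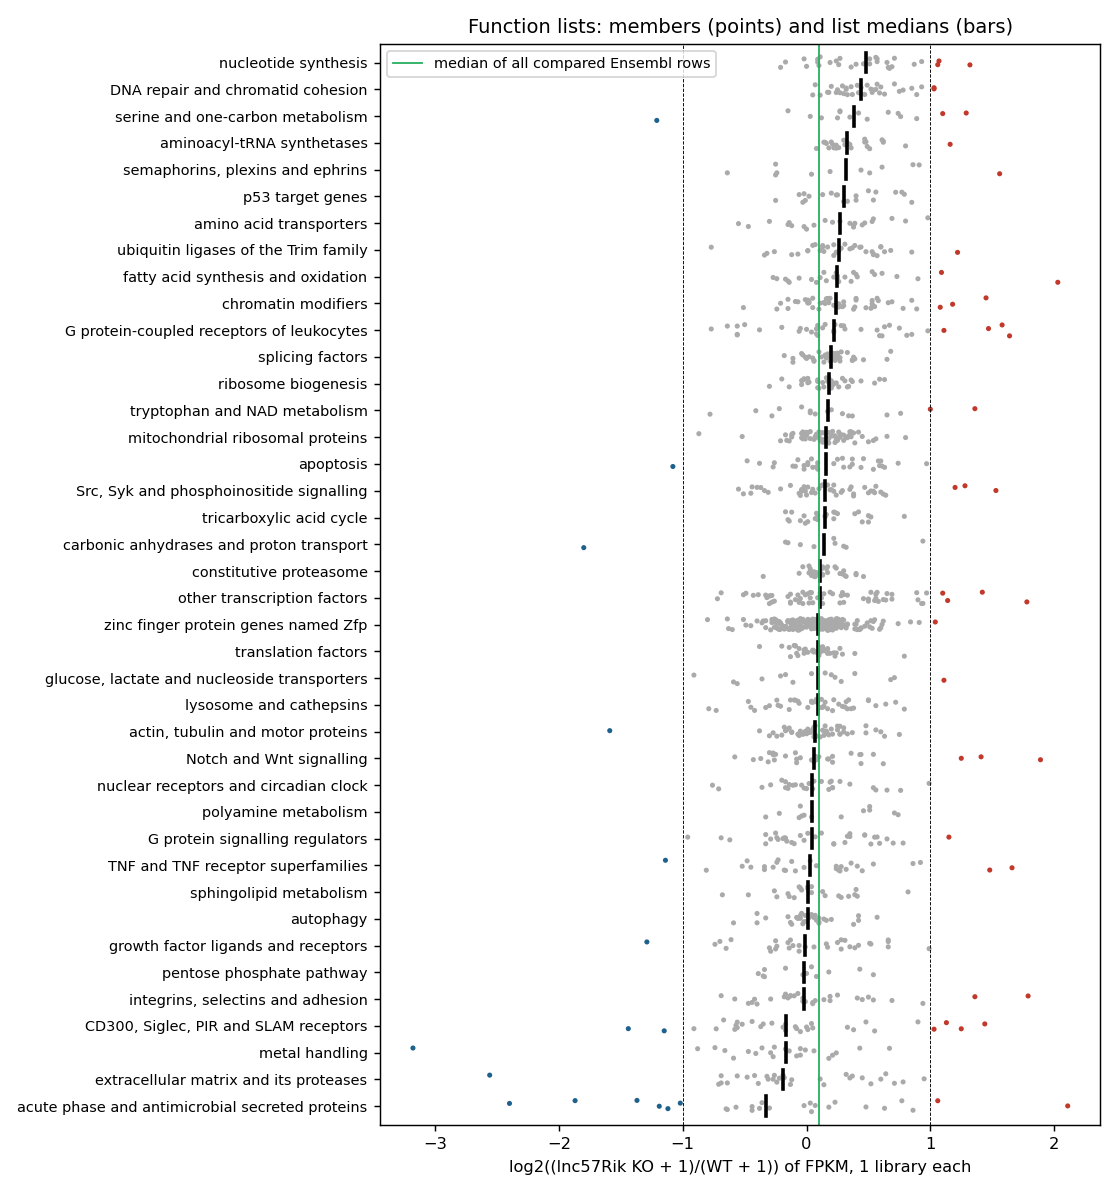
Log2 fold of lnc57Rik KO over WT for the compared members (points, 1 library each) of 40 of the 41 function lists with at least 5 of them, ordered by median (black bars). The green line is the median of all compared Ensembl rows, 0.10; red and blue points are past the rule of size, and the medians run from 0.48 for nucleotide synthesis to -0.33 for acute phase proteins.

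Among the function lists shown in the plot of list members, those of secreted and matrix proteins had the lowest medians, followed by metal handling and paired immune receptors. Among acute phase and antimicrobial secreted proteins the median was -0.33 over 26 members, with 2 higher and 6 lower. Besides Prok2, Lrg1 and Slpi the lower members were Saa3, a serum amyloid A protein (348 FPKM in WT, 94.5 in lnc57Rik KO and 235 in lncGM1082 KO, log2 fold -1.87), Orm1, an orosomucoid (28.1, 11.7 and 37.1 FPKM, -1.19), and Thbd, an anticoagulant receptor (6.84, 2.61 and 7.43 FPKM, -1.12). Orm1, Thbd and Slpi were at or above WT in lncGM1082 KO, whereas Prok2, Lrg1 and Saa3 were intermediate. Saa3 is also a member of a marker list. The higher members were Retnla, a resistin-like protein of alternatively activated macrophages and eosinophils (0.814, 6.84 and 1.01 FPKM, 2.11), and the endothelin gene Edn1 (1.06).

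Metal handling had a median of -0.17, with 17 of 23 members below 0, and its summed level, mostly Fth1, went from 25841 to 17433 FPKM. Steap4 was its 1 member past the rule, and the zinc and copper binder Mt1 was next with 307 FPKM in WT, 166 in lnc57Rik KO and 291 in lncGM1082 KO (-0.88). Extracellular matrix and its proteases had a median of -0.19 over 31 members, with Olfml2b lower. The collagenase gene Mmp13 lay at the other end of that list, with 77.8, 151 and 125 FPKM (0.95). Carbonic anhydrases and proton transport had Car4 as the 1 member past the rule of 10, and Car2 was at 0.94. Of the 44 neutrophil and MDSC markers 10 were lower in the same library, and their part in these values was not tested.

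Receptors and signalling genes were past the rule one by one rather than as lists. Among 38 G protein-coupled receptors of leukocytes 4 were higher: Adgre4, an adhesion receptor (1.64), P2ry10, a lysophospholipid receptor (1.58), and S1pr1 (1.47) and S1pr3 (1.11), receptors for sphingosine 1-phosphate. Adgre4 had 1.61 FPKM in WT, 7.15 in lnc57Rik KO and 2.15 in lncGM1082 KO, and S1pr1 had 1.42, 5.71 and 1.90 FPKM. All 4 were highest in lnc57Rik KO and at least slightly above WT in lncGM1082 KO. In the TNF and TNF receptor superfamilies, lymphotoxin alpha (Lta, 1.66) and Cd40, the receptor for T cell help (1.48), were higher, with 2.03, 8.59 and 2.69 FPKM for Lta and 3.97, 12.9 and 6.33 FPKM for Cd40. Cd40 is also a member of a marker list. Tnfrsf9, the costimulatory receptor 4-1BB, was lower, with 267 FPKM in WT, 121 in lnc57Rik KO and 253 in lncGM1082 KO (-1.14).

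Among 33 paired immune receptors of the CD300, Siglec, PIR and SLAM families 4 were higher and 2 lower, with a median of -0.17. Slamf8 (1.44), Slamf1 (1.25) and Slamf7 (1.13), receptors of the SLAM family, were among the higher members. Slamf7 had 13.3 FPKM in WT, 30.4 in lnc57Rik KO and 26.3 in lncGM1082 KO and so was high in both knockout libraries, while Slamf8 (0.510, 3.08 and 0.800 FPKM) was high in lnc57Rik KO alone. Pirb, an inhibitory receptor for class I molecules, was lower beside Sirpb1b, with 84.0, 37.3 and 63.2 FPKM (-1.15). Of 49 Src, Syk and phosphoinositide signalling genes the exchange factors Rasgrp3 (0.286, 2.73 and 0.600 FPKM, 1.53) and Vav2 (1.28) and the kinase Fyn (1.20) were higher. Of the Notch and Wnt genes Dtx1 (0.244, 3.62 and 0.540 FPKM, 1.89), which acts on Notch, the ligand gene Dll4 (1.41) and Dtx3l (1.25) were higher. Dtx1, Dll4, Rasgrp3 and Slamf8 had under 1 FPKM in WT, where the rule allows no lower call.

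Further genes past the rule were the adhesion genes Tspan13 (1.79) and Itgb3 (1.36), the guidance and immune semaphorin Sema7a (1.56), the adenylyl cyclase Adcy6 (1.15), the sugar phosphate exchanger Slc37a1 (1.11) and the Trim family gene Trim30c (1.22). Sema7a had 6.18 FPKM in WT, 20.1 in lnc57Rik KO and 13.6 in lncGM1082 KO, and Tspan13 had 1.66, 8.20 and 3.41 FPKM. Casp6, an executioner caspase, was lower, with 7.66 FPKM in WT, 3.08 in lnc57Rik KO and 6.57 in lncGM1082 KO (-1.08). It was the 1 member past the rule among 34 apoptosis genes, whose median was 0.16.

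Of 69 other transcription factors 4 were higher and 0 lower, with a median of 0.11. Aff3 (0.927, 5.60 and 1.16 FPKM, log2 fold 1.78), Mef2c (0.465, 2.91 and 0.442 FPKM, 1.42) and Foxp1 (2.61, 6.95 and 4.01 FPKM, 1.14) are known to be used by B cells among others, and Gfi1b (1.06, 3.42 and 1.34 FPKM, 1.10) is a repressor of erythroid and megakaryocyte cells. Of 50 chromatin modifiers Satb1, an organizer of lymphocyte chromatin (1.04, 4.58 and 1.51 FPKM, 1.45), the remodeller Chd3 (1.92, 5.62 and 2.40 FPKM, 1.18) and Uhrf1, which maintains DNA methylation (11.1, 24.6 and 10.5 FPKM, 1.08), were higher. Of 226 zinc finger genes named Zfp 1 was higher, Zfp982. With a pseudocount of 5 these 8 genes no longer passed the rule, and their part in the shift of the B cell list was not tested.

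In 16 of the 42 function lists no compared member passed the rule of size. Among these lists were the constitutive proteasome (0.11 over 34 members), lysosome and cathepsins (0.09 over 45), the tricarboxylic acid cycle (0.15 over 26) and splicing factors (0.20 over 42). The p53 target genes were at 0.30 over 21 members. Amino acid transporters had a median of 0.27 with the glutamine carrier Slc1a5 at 0.98. Polyamine metabolism (0.04), nuclear receptors and circadian clock genes (0.04), sphingolipid metabolism (0.01), autophagy (0.01) and the pentose phosphate pathway (-0.02) lay near 0.

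Among compared Ensembl rows 14 were listed at 0 in WT and above 0 in lnc57Rik KO, and 10 the other way round, most of them with names of predicted genes. The immunoglobulin joining segment Ighj2 was at 0 in WT and 13.1 FPKM in lnc57Rik KO, with a ratio interval that began at 6.04. Scarna8, a small RNA of Cajal bodies, was at 0 and 2.17 FPKM, with an interval that reached down to 0.963 and so did not exclude 1.

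Promoter windows were counted for 7950 of the compared genes, 205 of them higher and 45 lower, and 9 motifs were searched on both strands. Histones, small RNAs, antigen receptor genes, ribosomal pseudogenes and genes with clone or predicted names were left out of these groups. The 41 higher Hist1 genes thus do not enter the shares of higher genes. The TATA box was searched as TATAAA, the CCAAT box by the letters of its name, the C/EBP element as TTNNGNAA and the core bound by PU.1 as GAGGAA. The STAT element was searched as TTCNNNGAA, the octamer core as ATGCAAA and the E2F element as TTTGGCG. The interferon response element was GAAA repeated after any 2 bases, and the kappa B element was GGG and then TTTCC with any 2 bases between them. Each motif was counted separately, so matches of different motifs could overlap. The interferon pattern stood in 14.6% of the promoters of higher genes, 8.89% of lower genes and 3.36% of all compared genes, against 3.49% of all 27025 promoters in the table. The C/EBP pattern stood in 38.0% of higher, 62.2% of lower (28 of 45) and 31.6% of all compared genes, against 40.7% in the table. Over all windows both groups thus held both patterns more often than the compared genes as a whole. The share was largest in higher genes for the interferon pattern and in lower genes for the C/EBP pattern.

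**Figure D5:**
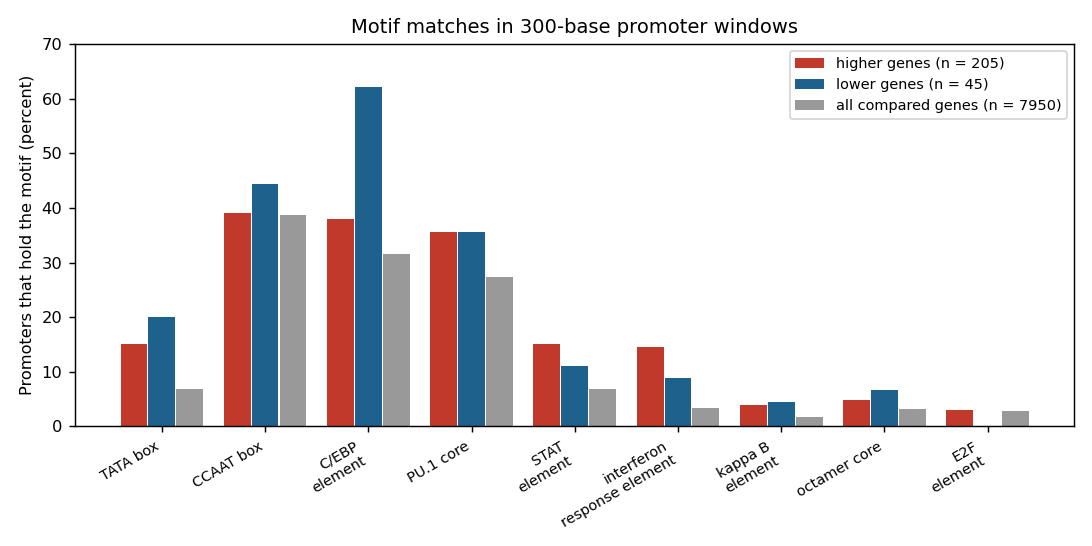
Share of promoter windows of 300 bases that hold each of 9 motifs on either strand, for higher, lower and all compared genes. Histones, small RNAs, antigen receptor genes, ribosomal pseudogenes and genes with clone or predicted names were left out. The interferon response element stands in 14.6% of higher, 8.89% of lower and 3.36% of all compared genes. The C/EBP element stands in 38% of higher, 62.2% of lower and 31.6% of all compared genes.

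Base composition differed between these groups too, with a median GC content of 55.3% in higher, 54.0% in lower and 61.0% in all compared promoters, and AT-rich patterns are more frequent at low GC. Under 50% GC the interferon pattern stood in 26.4% of 72 higher, 2 of 18 lower (11.1%) and 10% of 929 compared genes. The C/EBP pattern stood there in 65.3% of higher, 16 of 18 lower (88.9%) and 61.2% of compared genes. From 50% to 60% GC the C/EBP pattern stood in 33.8% of 65 higher, 8 of 15 lower and 42.1% of compared genes. The interferon pattern stood there in 13.8% of higher, 2 of 15 lower (13.3%) and 3.81% of compared genes, so higher and lower genes were alike in it. At 60% GC and above, which held 4369 of the 7950 windows, the interferon pattern stood in 2 of 68 higher genes (2.94%), 0 of 12 lower genes and 1.67% of compared genes. The C/EBP pattern stood there in 13.2% of higher genes, 4 of 12 lower genes (33.3%) and 19% of compared genes. The STAT pattern stood in 15.1% of higher, 11.1% of lower and 6.77% of all compared genes. Shares were 15.1%, 20% and 6.84% for the TATA box, 3.90%, 4.44% and 1.72% for kappa B, and 39.0%, 44.4% and 38.7% for the CCAAT box in the same order. They were 35.6%, 35.6% and 27.4% for PU.1, 4.88%, 6.67% and 3.21% for the octamer, and 2.93%, 0% and 2.78% for E2F. The genes were grouped by their folds, and whether any factor bound these windows was not measured here.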

How the data were processed

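RNA sequencing of 3 MDSC libraries, 1 per genotype, was used. The deposited values are FPKM per gene, made by the authors, and Bowtie 0.12.2 and the build mm9 are named without a role per the submitters' processing notes. Row positions followed GRCm38: of 20649 Ensembl rows, 20607 were found in GENCODE M21 and 19553 had the identical position. No source used here gives the strand setting or the treatment of multiply mapping reads, so near-identical copies and overlapping or antisense genes are uncertain. Low FPKM values were whole multiples of 1 fragment: with M21 exon lengths, for genes with 1 transcript 98.95% to 99.14% of the values below 20 fragments were within 0.05 of a whole number, and for genes with several 93.22% to 93.63%. For 1000 exon bases, 1 fragment gave 0.0541 to 0.0568 FPKM. Ratio intervals (exact Clopper-Pearson, 95%, scipy 1.17.1) used these fragments and cover counting error only, and a value of 0 allows up to 3 fragments. Scripts ran in Python 3.11.15 with pandas 2.3.3, numpy 2.4.6 and matplotlib 3.10.9, and the count and interval code was tested on simulated data.

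The rows compared had a mean of at least 1 FPKM over 3 libraries, so a gene could pass through its high library alone. Members and the 42 function and 9 marker lists were chosen with earlier results of these data known. Named genes were the 15 largest folds each way outside marker lists at a mean of at least 5 FPKM, the 10 largest FPKM gains and losses, up to 4 members past the rule per function list (else the 2 largest), genes at 0 in one library, genes nearest the thresholds and runs of at least 3 neighbours. Clone names, small RNAs, antigen receptor segments, ribosomal pseudogenes and histones were left out of that naming, except for the small RNA at 0 and for the families described after their values were seen. Alternatives were pseudocounts of 0.1 and 5, no filter, a mean of at least 5 FPKM, median ratio scaling, and equal sums without the 20 highest rows. Promoter sequences are from RefSeq (GRCm38.p6), with the first window listed per gene. Some genes and lists counted in the totals are not reported by name here.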

Additional observations from a re-analysis of the deposited data

How the results depend on the processing

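The counts of genes past the rule of size depended on the pseudocount and the minimum level. Against 752 higher and 340 lower rows, a pseudocount of 0.1 gave 1397 and 722, a pseudocount of 5 gave 179 and 46, and a minimum mean of 5 FPKM gave 234 and 122. The 60 function list genes past the rule became 108, 14 and 31 in that order. Without the filter (1000, 414 and 61), under median ratio scaling (651, 423 and 53) and with equal sums without the 20 highest rows (726, 358 and 59) each count lay within 1.5 times. The median log2 fold of all rows, 0.07, ranged from 0.00 to 0.08. Among the 110 named genes that met the rule, 68 did not with a pseudocount of 5, among them 9 of the 15 largest negative folds, from Acta2 (-0.98) and Kcnn3 (-0.97) to Gstt1 (-0.80), 7 under median ratio scaling (Rrm2, Dut, Parp1, Atm, Zfp982 and Ifi206 among them, at 0.92 to 0.99) and 1 with equal sums (Parp1, 0.98). A pseudocount shrinks or widens low genes by its construction, and a higher minimum leaves fewer genes. Of the 110, 0 changed sign, which was fixed in advance and is no check of direction. A pseudocount or a minimum level cannot reverse a fold. Median ratio scaling and equal sums moved the median log2 fold of all rows by -0.07 and -0.02, too little to reverse a fold past the rule. No paired analysis was possible because each genotype has 1 library. Low levels limit small RNA genes most.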
